A study of Mus musculus with 4 samples.

Results

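The interleukin-1 (IL-1) system and the inflammasome were followed in splenic Esam dendritic cells (DC) through 10 genes: the cytokine genes Il1b and Il18, the antagonist gene Il1rn, the decoy receptor gene Il1r2, the receptor subunit gene Il1rap, the signalling genes Myd88 and Irak3, and the inflammasome genes Nlrp3, Pycard and Casp1. A probe set stood for a gene where the platform annotation gave it that symbol alone, and each of the 10 genes had 1 such probe set, out of 19938 genes with one on the array. All 10 reached the log2 value of 6.5 that the study's methods took as background on at least 1 array, as did 9894 genes in all. The cells came from 2 cKO mice, labelled DCRunx3 -/-, and 2 wt mice, labelled DCRunx3 +/+, all 6 weeks old, paired as 2 litters with 1 mouse of each genotype. In the cKO mice both floxed Runx3 alleles were cut by a Cre driven by the CD11c promoter, which is also active in other CD11c-positive cells, so that the deletion was not limited to Esam DC. Whether the wt littermates of these arrays carried floxed alleles is not given in the labels. The cells were sorted on CD11c, MHCII, Esam, CD4 and CD8, and RNA of the whole sorted population of 1 mouse went on each array. The question was which genes of Esam DC respond to the loss of Runx3, a transcription factor of the Runt family.

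IL-1 beta and IL-18 are made as inactive precursors. A sensor such as NLRP3 joins the adaptor ASC, encoded by Pycard, and caspase-1 into the inflammasome, and caspase-1 cuts the precursors into their active forms. Secreted IL-1 binds IL1R1, recruits IL1RAP and signals through MyD88 and IRAK kinases to NF-kappaB, while IL-1RA (Il1rn) and IL1R2 block it outside the cell and IRAK-M (Irak3) blocks it inside. Dendritic cells both make these cytokines and respond to them.

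The study's methods called a gene at 1.5-fold or more, in either direction, together with a p of 0.05 or less, not adjusted, from a one-way test. Of the 10 genes, 2 passed these thresholds, against 1.41% of the 18889 probe sets tested and 1.85% of the genes taken with 1 probe set each. Irak3 was higher in cKO, as were 0.9% of probe sets, and Il1r2 was lower, as were 0.514%. Il1rn, which was 2.38-fold higher in cKO, did not pass them. By limma with Benjamini-Hochberg adjustment over all 18889 probe sets none of the 10 passed an adjusted p of 0.05, and nor did any other probe set (0%), whereas 1771 (9.38%) had an unadjusted p under 0.05. The adjusted p of the 10 genes lay between 0.158 and 0.823. In a fit restricted to the brightest probe set of each gene, Irak3 passed (limma, adjusted p = 0.0346) among 42 of 9894 genes (0.424%). With the litter as a block in that fit Irak3, Il1r2 and Il1rn passed (adjusted p = 0.0048, 0.00822 and 0.0122) among 409 genes (4.13%). That blocked fit was added after the data were seen. The same block in limma over all 18889 probe sets gave these genes an adjusted p of 0.252, 0.294 and 0.297, and no probe set passed. The inflammasome genes Nlrp3, Pycard and Casp1 passed none of these tests, and their log2 values differed between the groups by 0.15 (Pycard), -0.13 (Nlrp3) and -0.09 (Casp1).

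The 4 arrays were checked against their labels first. The labels call all mice male, but Xist, which is transcribed from the inactive X chromosome of females, was at 12.78 in cKO and 12.75 in wt of litter 1 and at 5.19 in cKO and 5.15 in wt of litter 2, and Kdm5d on the Y chromosome ran the other way. The 2 kinds of array were balanced over the genotypes but split by litter, so that litter and sex by these transcripts cannot be told apart. The values within litters are given beside each gene. The Runx3 probe set read 11.47 and 11.45 in cKO, against 11.37 and 11.51 in wt, and no source used here says whether its probes lie in the deleted part, so that it checks nothing. The study reports a Western blot in which sorted CD4+ DC of mice with this Cre had no Runx3 protein. The DC genes Itgax, H2-Ab1, Flt3 and Esam were above 10 on every array. Array medians ran between 6.58 and 6.62.

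Sequences upstream of the start sites are shown for the genes past the study's thresholds, Irak3 and Il1r2, and for Il18, the only other gene of the 10 with a Runx word there. RefSeq (GRCm38.p6) gave 14 windows of 250 bases before an annotated start for the 10 genes, and these were searched on both strands for the Runx words TGTGGT and TGCGGT (5′ to 3′), and for the NF-kappaB consensus. No window of the 10 genes held both motifs. The words were found in 2 of the 14 windows, against 18.6% of the 32851 windows of all genes. The word begins at position -59 from the start of Irak3 and at -65 from that of Il18. Capitals mark the Runx word, read on the strand of the gene, where ACCACA is TGTGGT on the other strand. A match is a description and not a binding site.
Irak3, chr10:120202131-120202380, minus strand: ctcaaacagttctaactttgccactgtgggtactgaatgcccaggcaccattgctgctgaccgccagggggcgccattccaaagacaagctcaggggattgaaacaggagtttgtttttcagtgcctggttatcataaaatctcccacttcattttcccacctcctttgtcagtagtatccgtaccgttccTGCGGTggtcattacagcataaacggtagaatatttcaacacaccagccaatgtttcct
Il18, chr9:50554450-50554699, plus strand: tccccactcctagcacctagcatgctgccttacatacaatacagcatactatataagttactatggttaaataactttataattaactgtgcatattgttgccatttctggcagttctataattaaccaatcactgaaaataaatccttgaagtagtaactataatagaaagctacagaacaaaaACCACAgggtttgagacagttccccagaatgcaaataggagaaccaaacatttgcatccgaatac
Il1r2, chr1:40085843-40086092, plus strand: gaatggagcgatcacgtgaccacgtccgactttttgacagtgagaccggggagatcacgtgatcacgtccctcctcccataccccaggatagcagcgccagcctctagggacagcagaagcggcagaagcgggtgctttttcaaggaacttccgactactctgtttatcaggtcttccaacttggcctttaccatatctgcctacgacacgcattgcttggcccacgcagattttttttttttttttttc
The other Irak3 window, the 3 windows of Il1rn and the Il1r2 window shown held none of the Runx words. The NF-kappaB consensus was found in 1 of the 14 windows, one of the 2 of Nlrp3, at position -186, against 7.25% of all windows.

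Among the cytokines, Il1b was at higher values in both cKO mice but did not pass the thresholds. It read 12.26 and 12.12 in cKO, against 11.90 and 11.50 in wt, so that the groups did not overlap. The means were 12.19 ± 0.10 in cKO and 11.70 ± 0.29 in wt (SD, n = 2 each). The difference of 0.49 (limma standard error 0.17, adjusted p = 0.505) corresponds to 1.41-fold and was 0.36 in litter 1 and 0.62 in litter 2. Il18 read 10.04 and 9.96 in cKO, against 9.63 and 9.91 in wt. Its groups lay 0.04 apart in litter 2 and 0.40 apart in litter 1, and the mean difference of 0.22 (standard error 0.13, adjusted p = 0.705) was less than 2 standard errors. For Il18 the 2 wt mice differed from each other more than wt replicate 2 differed from either cKO mouse. In bulk RNA of a sorted population, a change in the share of cells that make a transcript and a change in its amount per cell cannot be told apart, here and in every comparison that follows.

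**Figure D1:**
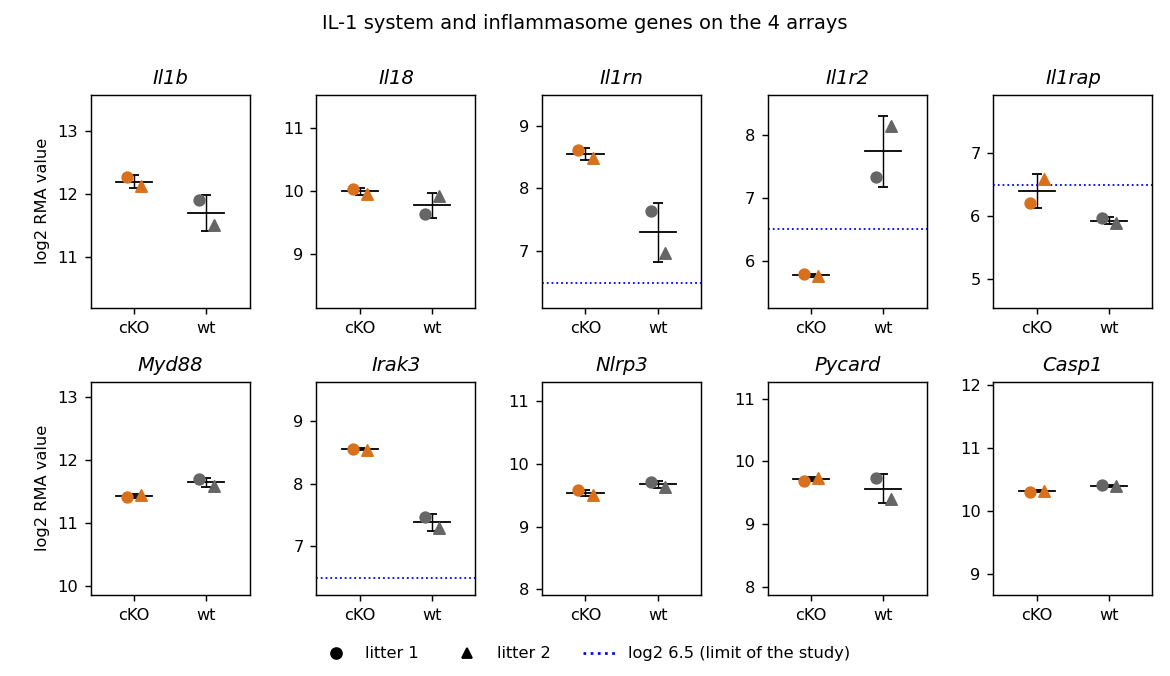
Log2 RMA values (y axis, each panel with its own range of equal span) of the 10 genes in cKO (orange) and wt (grey), circles for litter 1 and triangles for litter 2, with the mean (line) and SD of 2 mice. Il1rn and Irak3 lie higher in cKO and Il1r2 lower, with both cKO arrays of Il1r2 under the dotted limit of 6.5.

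Of the extracellular inhibitors of IL-1, the soluble antagonist gene was at higher values in cKO and the decoy receptor gene was lower. Il1rn, which encodes the receptor antagonist that occupies IL1R1 without signalling, read 8.62 and 8.48 in cKO, against 7.63 and 6.97 in wt. Both cKO arrays lay well above both wt arrays, and the 2 wt arrays were far apart (8.55 ± 0.10 in cKO and 7.30 ± 0.47 in wt, SD, n = 2 each). The difference was 1.25 (standard error 0.25, 2.38-fold, adjusted p = 0.308), with 0.98 in litter 1 and 1.51 in litter 2. Il1rn missed the study's thresholds with all 4 arrays, and passed them without wt replicate 1, when the difference was 1.58.

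Il1r2 encodes a receptor that binds IL-1 and lacks the signalling domain, in secreted and membrane forms. It read 5.78 and 5.75 in cKO, against 7.34 and 8.14 in wt. Both cKO arrays lay under the limit of 6.5 and both wt arrays above it, so only a bound can be given: Il1r2 was at least 2.36-fold lower in cKO, taking 6.5 for the cKO arrays. The means were 5.77 ± 0.02 in cKO and 7.74 ± 0.57 in wt (SD, n = 2 each). The measured difference was -1.97 (standard error 0.29, adjusted p = 0.223), with -1.56 in litter 1 and -2.39 in litter 2. Il1r2 entered the test through its wt arrays. With the litter as a block it no longer passed the study's thresholds, with the difference unchanged and 1 residual degree of freedom in place of 2 in the methods' test, and neither Il1r2 nor Irak3 passed them without cKO replicate 1 (differences of -1.99 and 1.16) or cKO replicate 2 (-1.96 and 1.18), when the spread of the methods' test came from the wt pair alone.

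Il1rap, the accessory chain shared by the receptors of IL-1, IL-33 and IL-36, sat at the limit of detection. It read 6.21 and 6.58 in cKO, against 5.96 and 5.88 in wt, and cKO replicate 2 alone was above 6.5. It entered the test through that array, so its difference of 0.47 (standard error 0.15, adjusted p = 0.491) is given with no fold.

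Of the 2 signalling genes, the inhibitor was higher in cKO and the adaptor did not pass a test. Irak3, a kinase homologue that restrains IL-1 and Toll-like receptor signalling, read 8.56 and 8.54 in cKO, against 7.47 and 7.29 in wt. The 2 cKO mice were nearly identical and both lay above both wt mice by more than 1 log2 unit (8.55 ± 0.01 in cKO and 7.38 ± 0.13 in wt, SD, n = 2 each). The difference of 1.17 (standard error 0.10, adjusted p = 0.158, and between 0.0048 and 0.877 over the alternatives tried) corresponds to 2.25-fold and was 1.08 in litter 1 and 1.25 in litter 2. Myd88, the adaptor of the same receptors, read 11.41 and 11.45 in cKO, against 11.70 and 11.59 in wt. Its groups did not overlap, and the difference was -0.22 (standard error 0.09, adjusted p = 0.573), with -0.29 in litter 1 and -0.14 in litter 2.

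**Figure D2:**
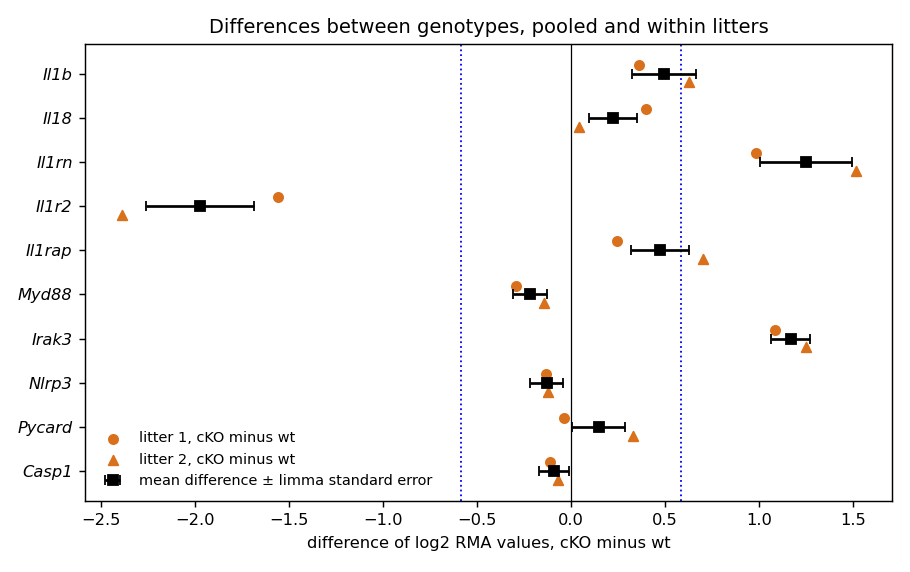
Difference of log2 RMA values, cKO minus wt (x axis), for the 10 genes: squares are means with limma's standard error, circles litter 1 and triangles litter 2, and dotted lines mark a 1.5-fold difference. Il1rn, Irak3 and Il1r2 lie beyond these lines in both litters, and Pycard is the gene whose litters differ in sign.

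The parts of the inflammasome differed little. Nlrp3, the sensor, read 9.57 and 9.51 in cKO, against 9.71 and 9.63 in wt, a difference of -0.13 (standard error 0.09, adjusted p = 0.75). Casp1, the protease, read 10.30 and 10.32 in cKO, against 10.42 and 10.39 in wt, a difference of -0.09 (standard error 0.08, adjusted p = 0.807). For both genes the cKO arrays lay just under the wt arrays in each litter. Pycard, the adaptor, read 9.69 and 9.74 in cKO, against 9.73 and 9.40 in wt, with overlapping groups. Its difference of 0.15 (standard error 0.14, adjusted p = 0.823) came from litter 2 (0.33), while litter 1 gave -0.04. Without wt replicate 2 it was -0.02.

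Over the 10 genes, groups did not overlap for 9, against 40.1% of all tested probe sets. The cKO arrays lay above the wt arrays for 5 (16.4% of all) and below them for 4 (23.7% of all). The sign was the same in both litters for 9 of the 10. It differed between litters for Pycard alone of the 10 genes, and for 42.3% of all tested probe sets. The median size of the difference was 0.35 for the 10 genes and 0.10 for the 9894 genes with 1 probe set each, and a size over 1 was found for 3 of the 10 genes and for 0.97% of those 9894. These counts include Il1r2, with both cKO arrays under the limit, and Il1rap, with cKO replicate 2 alone above it. Both entered the test only through the group in which they read higher. The 10 genes were also chosen with earlier results of these data known, so the counts are a description. The median difference with its sign was 0.18 for the 10 genes and -0.03 for all. The wt arrays spread more than the cKO arrays for 9 of the 10 genes, Il1rap being the exception, as they did for 65.2% of tested probe sets with 1 symbol.

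**Figure D3:**
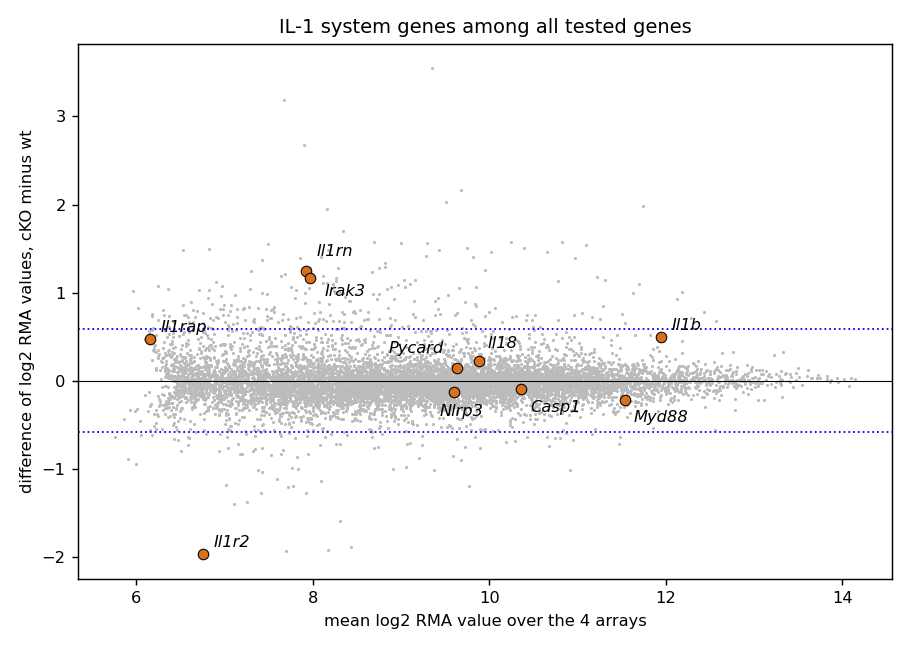
Difference of log2 RMA values, cKO minus wt (y axis), against the mean log2 RMA value over the 4 arrays (x axis) for 9894 tested genes (grey) and the 10 genes (orange), with dotted lines at a 1.5-fold difference. Il1r2 lies at -1.97, Il1rn at 1.25 and Irak3 at 1.17, and the inflammasome genes lie within the grey band.

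The rest of the pathway was read from 5 lists of 77 genes, of which 70 had a probe set of their own and 52 were tested. Of these 52, 2 passed the study's thresholds (1.85% of all 9894 genes did), both higher in cKO, and 50 did not, with a median difference of -0.03. The first was Il1a, the IL-1 alpha gene and the neighbour of Il1b on chromosome 2. Il1a read 6.93 and 6.65 in cKO, against 5.71 and 5.72 in wt, with both wt arrays under the limit, so that it was at least 1.22-fold higher (measured difference 1.07, standard error 0.12, adjusted p = 0.202). The second was P2rx7, the ATP-gated channel that can trigger NLRP3, at 9.61 and 9.58 in cKO, against 8.87 and 8.94 in wt (difference 0.69, adjusted p = 0.209). Il1a entered the test through its cKO arrays. None of the 52 genes passed an adjusted p of 0.05 in limma over all probe sets. In the limma fit with 1 probe set per gene and the litter as a block, added after the data were seen, 6 did (4.13% of all 9894 genes did). These were Il1a (adjusted p = 0.0082), P2rx7, Ninj1, Nlrp1a, Nlrp1b and Nlrp10.

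Other ligands and receptors of the IL-1 family were mostly out of range. Of 8 ligands and antagonists, 6 lay under 6.5 on all arrays, among them Il33 and the IL-36 genes, and Il18bp, which encodes the IL-18 binding protein, differed by 0.04 (standard error 0.10). Of 6 receptors measured, only Sigirr, an inhibitory receptor, was tested (-0.13, standard error 0.10). Next to Il1r2 on chromosome 1 the RefSeq order runs Il1r1, Il1rl2, Il1rl1, Il18r1 and Il18rap. Among them the probe sets of Il1rl2, Il18r1 and Il18rap stayed under 6.5 on every array, while Map4k4 on the other side of Il1r2 read 9.67 and 9.72 in cKO, against 9.29 and 9.16 in wt. Map4k4 was thus the nearest neighbour of Il1r2 with a measured value, and it was not lower in cKO. Beside Irak3 on chromosome 10, Helb differed by 0.03 and Tmbim4 by 0.39, and Psd4 beside Il1rn on chromosome 2 differed by 0.03, none of them past the thresholds.

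The kinases, adaptors and ubiquitin enzymes between receptor and NF-kappaB gave no call. None of 14 tested genes passed the study's thresholds, which is near the share of 1.85% over all 9894 genes. Of the 14, 4 were higher and 10 lower, from 0.07 for Traf6 and Tab2 to -0.16 for Tab1 and -0.27 for Ube2n. Among IL-1 and NF-kappaB induced genes none of 16 passed (6 higher, 10 lower), which is also near that share. Tnfaip2 differed by 0.39 and Ptgs2, the cyclooxygenase-2 gene, by 0.19, while Tnf differed by -0.23 and Ccl3 by -0.16. Il6, Cxcl1 and Cxcl2, classical products of IL-1 signalling, lay under 6.5 on all 4 arrays.

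Of 19 tested inflammasome sensors, caspases and regulators, P2rx7 alone passed (1.85% of all 9894 genes did), and 9 were higher and 10 lower. Ninj1, whose product ruptures the membrane of dying cells, read 8.05 and 8.10 in cKO, against 7.62 and 7.54 in wt (difference 0.50, adjusted p = 0.276). The lower end was held by sensors other than NLRP3: Nlrp10 differed by -0.56 (adjusted p = 0.44) and Nlrp1b by -0.50 (adjusted p = 0.514). Nlrp1b and its near copy Nlrp1a (-0.47) are paralogs whose probes may not tell them apart. Aim2, the DNA sensor, differed by 0.07, Nlrc4 by -0.10, and Gsdmd, the pore former cut by caspase-1, by -0.06.

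**Figure D4:**
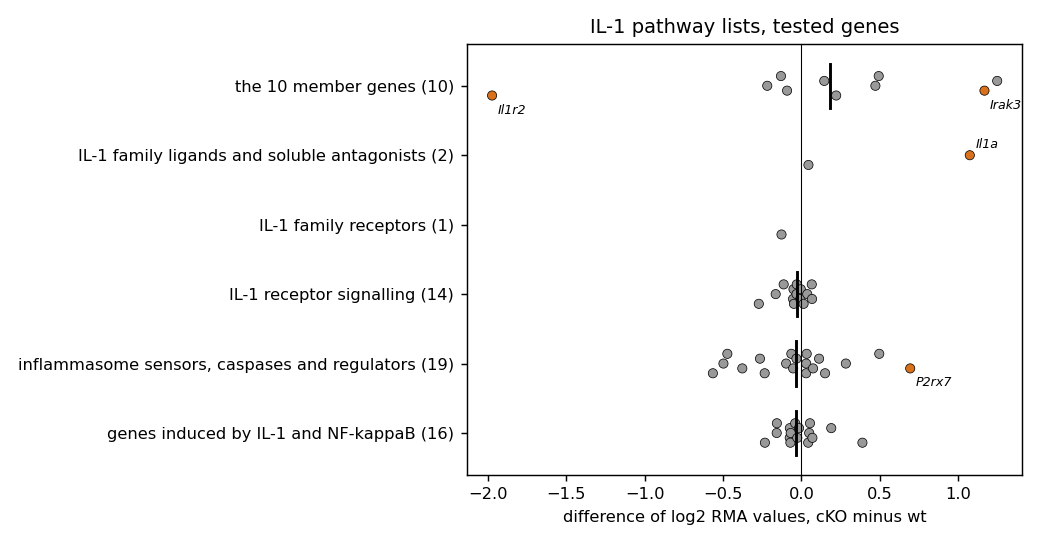
Difference of log2 RMA values, cKO minus wt (x axis), for the tested genes of each list (number in parentheses), with the 10 genes on top. Orange points passed the study's thresholds, and bars mark the median of lists with over 2 genes. Beyond Il1r2 and Irak3 only Il1a and P2rx7 are orange, and the signalling and induced genes lie between -0.27 and 0.39.

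Markers of other cells were read beside these results. Of all 9894 tested genes, 1.85% passed the study's thresholds, so that a short list with no call is near that share. Of 11 neutrophil markers 9 lay under 6.5 on all arrays, including S100a8, S100a9, Ly6g, Retnlg and Mmp8, and the T cell markers Cd3e, Cd3d and Cd3g did as well. The neutrophil list's remaining genes were Mmp9, which differed by 0.13, and Csf3r, which differed by 1.28 and passed the study's thresholds. All 7 cDC1 markers were tested and 6 of them passed the study's thresholds, all higher in cKO, Batf3 (-0.29) being the exception. The mean log2 value over the cDC1 markers was 10.47 and 10.56 in cKO, against 9.53 and 9.38 in wt. The study names the sorted cells CD4+ Esam-hi in a figure legend and CD11b+ Esam-hi in its text. The labels give no direction for the CD8 gate, and how far the sort left out cDC1 was not tested. Cd8a, one of the cDC1 markers, read 10.63 and 10.88 in cKO, against 9.49 and 9.08 in wt. All 9 macrophage markers were higher in cKO, with 2 past the thresholds (C1qb and Spic), and their mean was 10.23 and 10.41 in cKO, against 9.33 and 9.91 in wt. The groups overlapped for Hmox1 and Slc40a1. Of 5 tested monocyte markers, 3 passed, all higher (Ace, Treml4 and Ccr2), with a mean of 9.77 and 9.90 in cKO, against 8.88 and 8.89 in wt, while Vcan, F13a1 and Fn1 lay under 6.5 on all arrays. The mean values of the cDC1, monocyte and macrophage lists were thus higher on both cKO arrays than on both wt arrays, as were Il1rn and Irak3. The same held for the neutrophil, B cell and plasmacytoid DC lists, but not for mature DC. It also held for the Esam DC list (11.63 and 11.66 in cKO, against 11.54 and 11.52 in wt). The neutrophil mean rests on 2 tested genes, Csf3r and Mmp9, and the groups overlapped for Mmp9. The B cell mean rests on 3 tested genes, and the groups overlapped for Ms4a1. Among the genes that the study reports as raised in Runx3-deleted Esam-hi DC, by RT-qPCR or flow cytometry, are Irf8, Cx3cr1 and Flt3. It reports Itgax as lowered. On these arrays Irf8, a cDC1 marker here, differed by 1.13 and passed the thresholds. Cx3cr1, a monocyte marker here, differed by 0.98 and did not pass. Flt3 differed by -0.08 and Itgax by 0.12, and neither passed. Whether Il1rn, Irak3 and Il1r2 differed through a share of other cells or within Esam DC was not tested. None of 7 tested markers of mature DC passed, with Ccr7 at -0.23, Socs2 at -0.85 and Ccl22 at 0.70, and none of 3 B cell or 5 plasmacytoid DC markers did, with medians of 0.43 and 0.42. Of the 10 markers of the labelled cells all were tested, and Itgam (0.75) alone passed.

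**Figure D5:**
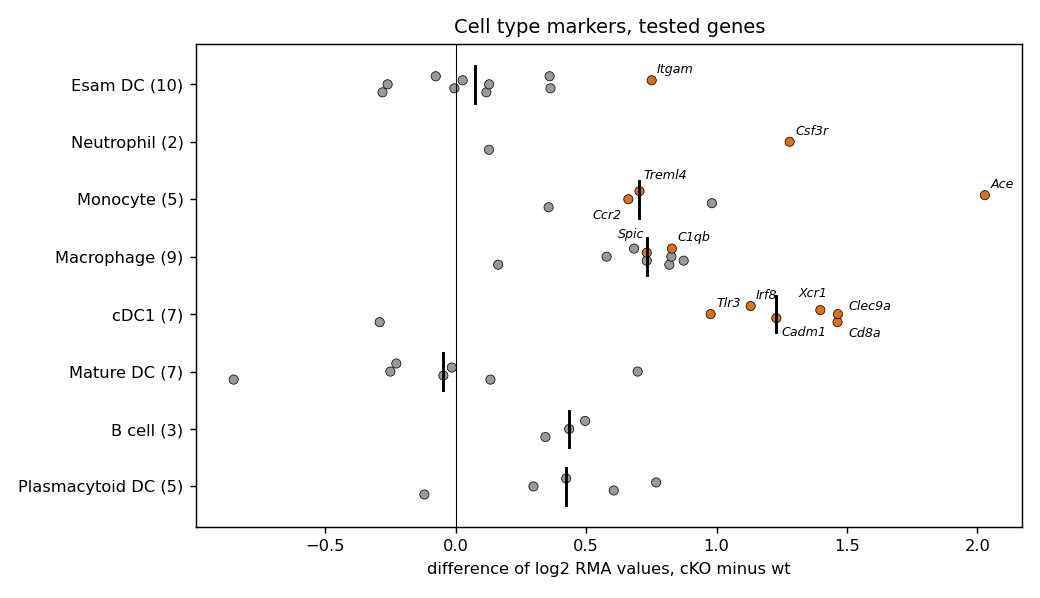
Difference of log2 RMA values, cKO minus wt (x axis), for the tested markers of 8 cell types (number in parentheses), orange where the study's thresholds were passed, with bars at the median of lists with over 2 genes. The cDC1 markers centre on 1.23, the macrophage markers on 0.73 and the Esam DC markers on 0.07.

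The genes nearest in pattern were found for Irak3 and Il1r2 by the root-mean-square distance between log2 values centred on each gene's own mean over the 4 arrays, among 9884 genes. Nearest to Irak3 was Cadm1, an adhesion molecule of cDC1 (distance 0.031), at 9.29 and 9.28 in cKO, against 8.15 and 7.96 in wt. The phospholipase gene Pla2g2d (0.038) and Gng12, a G protein gamma subunit gene (0.043), followed. Nearest to Il1r2 were Dab2ip (0.24), Blk (0.29), a Src family kinase gene of B cells, and the sodium-calcium exchanger gene Slc8a2 (0.34). Dab2ip, a Ras GTPase activating protein gene, read 7.66 and 7.36 in cKO, against 8.85 and 9.36 in wt, and Blk, like Il1r2, lay under 6.5 on both cKO arrays. The distances rest on 4 arrays shared by all of these genes and are a description.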

How the data were processed

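RNA of sorted splenic Esam DC from 4 mice was hybridised to 4 Affymetrix mouse 1.0 ST arrays. The deposited values are log2 values that the authors computed by robust multichip averaging (RMA) with GC correction in Partek, and the processing notes name Partek, RMA and mm9 without versions. The methods name the exon array and the platform annotation is that of the gene array, so that values are called probe sets. The number of arrays limits the precision. Of 35399 probe sets, 21789 carried 1 symbol, 1621 several (not named) and 11989 were not listed.

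Probe sets at 6.5 or more on at least 1 array (18889) were tested with limma 3.58.1 in R 4.3.3, as cKO minus wt (two-sided, Benjamini-Hochberg), and counted at the thresholds of the methods. Errors are limma's moderated standard errors (2 residual and 2.2 prior degrees of freedom). An exact permutation test of 2 arrays against 2 cannot give a p under 0.333 and was not used. The labels mark litters, and deviations from the group means correlated within litters (r = 0.27), so the litter served as a block in an alternative fit. The limma fit over all probe sets, without a litter term, was run on simulated data with independent noise. The fits with the litter as a block or with 1 probe set per gene were not simulated.

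The 10 genes, the lists and the rule for named genes (all 10 genes, list members past the study's thresholds, and the extremes of each list) were chosen with earlier results of these data known. Further genes were named for their role after their values were seen. The 1 probe set per gene is the brightest. The fit joining the litter block and 1 probe set per gene was added after seeing the data. RefSeq names and gene order were used, and the only coordinates printed are those of the sequences, in GRCm38.p6.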

Additional observations from a re-analysis of the deposited data

How the results depend on the processing

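The 10 differences kept their sign under the alternatives in which the gene was tested (11 for Il1rap, which fell under the stricter filter and under the limit without cKO replicate 2, and 13 for the other genes), except Pycard, which ran between -0.017 (wt replicate 2 left out) and 0.31 with 1 array fewer. The differences of Irak3 ran between 1.08 and 1.26, of Il1rn between 0.92 and 1.58 and of Il1r2 between -2.37 and -1.57 when 1 array was left out. The litter block changed the count of the 10 genes past the study's thresholds to 1 (Irak3) and the count of all probe sets past them to 135, against 267 without it, while 0 probe sets passed limma's adjusted threshold with or without it. With 1 array left out these counts ran from 0 to 3 and from 112 to 280, and the adjusted count stayed at 0. The adjusted count was 1 after a further quantile normalization, 2 with a trended prior, 42 with 1 probe set per gene and 409 when the litter block, the pairing the labels state, was added to that fit. Limma's unadjusted p at the same fold gave 493 probe sets, and 3 of the 10 genes, Il1rn being added. No filter and a median shift left all calls of the 10 genes as they were, as did the stricter filter for the 9 genes it kept. The cause of these shifts was not tested, except that 1 array fewer or a litter term leaves the methods' test 1 residual degree of freedom. The methods' one-way test after adjustment gave 0, with 1556 at an unadjusted p under 0.05. Values near 6.5 (Il1rap, Il1r2 in cKO and Il1a in wt) are limited by signal over background.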
